A study of Mus musculus with 14 samples.

Results

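The mitochondrial ribosomal proteins are the nuclear-encoded proteins named Mrpl (large subunit) and Mrps (small subunit). All protein-coding genes whose symbol begins with Mrpl or Mrps followed by a number were taken, which gave 78 genes (49 Mrpl and 29 Mrps) of the 21831 protein-coding genes with values, and all 78 passed the filter on low values. They were followed in 14 RNA-seq libraries of regulatory T cells (Tregs), sorted as CD4+ FOXP3-YFP+ cells from spleen and pooled inguinal, axillary and brachial lymph nodes of untreated mice. The 5 cKO libraries came from mice with loxP-flanked miR-15/16 clusters and a Cre recombinase expressed from their own Foxp3 locus (Foxp3-Cre), so that both clusters are deleted once a cell expresses Foxp3. The 4 WT libraries came from mice with intact miR-15/16. All sorts used the YFP reporter that comes with the Foxp3-Cre allele, so the WT cells carried it as well. The other libraries were of WT Tregs split by surface CD25, the IL-2 receptor alpha chain, into CD25lo (2 libraries) and CD25hi (3 libraries). By the study's methods, animals were matched for age and sex and were 8 to 11 or 20 weeks old, without saying which age was used for RNA-seq. Each group is described as biological replicates, so that p-values measure the spread between these libraries. The study asked which genes change in Tregs without miR-15/16 and whether they resemble those of CD25lo Tregs. Here the same comparisons were made for the mitochondrial ribosome.

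The mitochondrial ribosome, or mitoribosome, translates the few mRNAs that the mitochondrial genome encodes, all of them for subunits of the oxidative phosphorylation complexes. Its rRNAs are made in the mitochondrion, whereas its proteins are made in the cytosol and imported, so that its assembly draws on both genomes. T cells that are activated enlarge their mitochondrial content, and Tregs are known for their reliance on oxidative metabolism.

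Some of the symbols do not match the place of the protein. In human mitoribosome structures MRPS30 and MRPS18A sit in the large subunit, and MRPS36 is now assigned to the oxoglutarate dehydrogenase complex. Mrpl58 is the peptidyl-tRNA hydrolase also called ICT1. The symbols are used as deposited.

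The miR-15/16 family is shown first because its deletion separates the cKO from the WT libraries. The 3 mature miRNAs, from RefSeq on GRCm38.p6, share bases 2 to 8, the seed, which is in capitals. The miR-15a gene lies on chromosome 14 and the miR-15b gene on chromosome 3, and miR-16 is encoded in both clusters.
miR-15a-5p: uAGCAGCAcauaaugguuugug
miR-15b-5p: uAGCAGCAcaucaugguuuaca
miR-16-5p: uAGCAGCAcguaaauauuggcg

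Complements of the seed were searched in the longest annotated 3′ UTR of each gene in 3 forms, TGCTGCT (opposite bases 2 to 8), then GCTGCTA (opposite bases 2 to 7, followed by A) and the 8-mer TGCTGCTA that joins both. Of the 78 members, 14 (17.9%) held at least one, against 27.8% of the 12731 genes tested with an annotated 3′ UTR. The 3′ UTRs of the members were shorter, with a median of 388 against 1140 nt. An 8-mer stood in 3 members (3.85%) and in 4.46% of all genes tested. These 3 sites are printed because they are the longest matches among the members, with the match in capitals. They lie on GRCm38 at chr9:105079013-105079042 (Mrpl3, plus strand), chr6:92172194-92172223 (Mrps25, minus strand) and chr16:92111965-92111994 (Mrps6, plus strand).
Mrpl3: gtggcatgtgtTGCTGCTAcctactgagct
Mrps25: tactgttaggtTGCTGCTAagacaatagcc
Mrps6: ggcactatgggTGCTGCTAggttgttgtct

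Mrpl19, the member that passed the test between CD25lo and CD25hi Tregs, has a 3′ UTR of 4090 nt with 3 matches of 7 bases, none of them an 8-mer. They lie on the minus strand of GRCm38 at chr6:81960317-81960346, chr6:81959943-81959972 and chr6:81958184-81958213.
Mrpl19 site 1: tcattttcctgGCTGCTAactccttaatta
Mrpl19 site 2: gacttggctctTGCTGCTgagtttctctcc
Mrpl19 site 3: ctgagctcggcTGCTGCTgtgcattacttc

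The data are reads per gene divided by a size factor for each library, called normalized counts below. Libraries held 30055573 to 35226685 reads in genes, and 13723 to 18200 genes had a read. WT replicates 2 and 4, CD25hi replicate 2 and CD25lo replicate 2 had the fewest, at 13723 to 14525. Il2ra, which encodes CD25, had a mean of 14850 ± 243.8 normalized counts over the 2 CD25lo libraries and of 40170 ± 888.6 over the 3 CD25hi libraries (± SD). Its mean was 15510 ± 1685 over the 5 cKO and 26040 ± 2160 over the 4 WT libraries. Foxp3, which defines Tregs, averaged 15420 to 22850 normalized counts over the 4 groups. Dleu2, the host transcript of the deleted miR-15a/16-1 cluster, was at 2121.4 to 2712.6 normalized counts in cKO libraries and at 86.3 to 1099.7 in WT libraries, and mature miRNAs are not read by this assay. By Xist and Ddx3y, the cKO libraries and WT replicate 3 were female and all other libraries male, so outside that library sex and deletion cannot be told apart. A set of 22 genes of the immediate early and stress response, used as a term in 1 alternative, had a mean log2 level of 12.345 to 13.664 in cKO, 11.879 to 13.697 in WT, 12.217 and 11.74 in CD25lo, and 11.665 to 11.848 in CD25hi libraries.

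The members were expressed at a moderate level. Their mean over the 14 libraries had a median of 685.3 normalized counts, and 50 of the 78 lay between 300 and 1000. Another 19 were at 1000 or more, 6 were between 100 and 300, and 3 were below 100. Per kb of the longest annotated transcript, the mean level had a median of 507.5 normalized counts per kb over the 49 large subunit genes and 333.9 over the 29 small subunit genes. Mrpl52, a large subunit protein, was highest at 3407.0 normalized counts per kb, followed by Mrpl24 at 2728.8 and the small subunit protein Mrps21 at 1506.7. Lowest per kb were Mrpl53 at 11.3, Mrpl17 at 70.3 and Mrpl47 at 85.5. Mrpl17 and Mrpl47 have long annotated 3′ UTRs (6651 and 2197 nt) that lower the value per kb, and their mean levels were 513.2 and 287.6 normalized counts.

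Mrpl53 was close to the detection limit. It had 17.0, 25.1, 1.0, 19.0 and 3.1 normalized counts in cKO libraries, against 0.0, 0.0, 5.1 and 0.0 in WT libraries. In CD25lo libraries it had 23.6 and 16.1 normalized counts, and it was at 0 in the 3 CD25hi libraries. The cKO and WT values overlapped and the CD25 values did not, but neither difference passed the test (adjusted p = 0.19 and 0.129 from limma over all genes). Its exons overlap those of a gene on each strand (Gm42688 and Ccdc142os), so its few reads cannot be assigned with certainty. A fold change against CD25hi Tregs is not given because the gene had no read there.

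The spread between libraries of a group differed widely among the members. The SD within groups had a median of 0.25 log2 units over the 78 members. Among the 68 members in the middle of the range of levels (means from 300 up to 2000 normalized counts) it was 0.24, near the 0.23 of the 4940 genes tested in that range. Mrpl30 (0.10), Mrps26 (0.11) and Mrpl9 (0.115) were the steadiest. Mrpl53 (1.26), Mrps33 (0.91), Mrpl23 (0.81), Mrpl27 (0.76), Mrps6 (0.68), Mrpl11 (0.58) and Mrps18c (0.57) varied most. Counting error alone at their mean levels would give 0.066 to 0.147 log2 units for the last 6 of these.

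**Figure D1:**
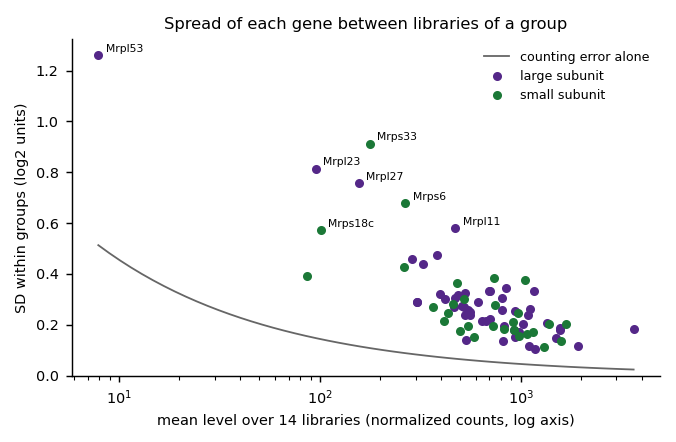
Each point is 1 of the 78 genes, with its mean level over 14 libraries on the x axis (normalized counts, log scale) and its SD between libraries of a group on the y axis (log2 units). Purple points are large and green points small subunit genes, and the line is the spread that counting error alone would give. Most genes lie between 0.1 and 0.4 log2 units, and the 7 with names lie above 0.5.

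Mrpl11 shows how the libraries differed. It had 421.9 to 583.0 normalized counts in cKO libraries. It had 180.2 in WT replicate 2 and 483.9 to 703.0 in the other WT libraries, 280.6 in CD25lo replicate 2 against 522.8 in CD25lo replicate 1, and 313.7 in CD25hi replicate 2 against 586.6 and 634.2 in the other CD25hi libraries. The low values of this gene were in libraries with few genes detected, but WT replicate 4, with few as well, had the highest value. Among the 75 members with a mean of at least 100 normalized counts, 15 were more than 0.5 log2 units away from the mean of the other WT libraries in WT replicate 2, and 15 in WT replicate 4, against 8 in WT replicate 1 and 7 in WT replicate 3. In cKO libraries this number was 0 to 9 of 75. It was 8, 17 and 14 in CD25hi replicates 1, 2 and 3, and 16 in each CD25lo library. The 2 CD25lo libraries were set against each other, so their numbers are the same by construction. A mean of fewer other libraries is also less certain, so these numbers cannot be compared between groups of unlike size. All genes tested with means of 300 to 2000 varied in a similar way. The median absolute deviation was 0.277 log2 units for the members and 0.272 for those genes in WT replicate 2. In WT replicate 4 it was 0.273 and 0.261, and in CD25hi replicate 2 0.336 and 0.271.

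No member was called between cKO and WT Tregs. Of the 78 genes, 0 were higher and 0 were lower at an adjusted p under 0.05 from limma, where 2.04% of all 16241 genes tested were higher and 1.48% lower. edgeR, DESeq2 and limma-voom also called 0 members in either direction, and without the 4 libraries with the fewest genes limma called 0 as well. At an unadjusted p under 0.05, 2 members (2.56%) were higher and 3 (3.85%) lower, where 9.57% of all genes tested were higher and 6.56% lower. The log2 fold change had a median of -0.05 over the members and of 0.05 over all genes tested, with 28 members above 0 and 50 below. The medians were -0.04 for the large and -0.06 for the small subunit. The immediate early gene level overlapped between the groups. The 12 myeloid markers (13 entries of the table, since Itgam has 2) summed to 1260.1 to 4994.9 normalized counts in cKO and 1691.5 to 7602.2 in WT libraries, the 8 B cell markers to 994.2 to 1313.8 in cKO and 536.4 to 968.5 in WT libraries, and the 6 CD8 T and NK cell markers to 701.2 to 785.6 in cKO and 631.3 to 1102.9 in WT libraries, with 0 markers at 0 in all of them, and their part in these values was not tested. In bulk samples, fewer cells of a type and less RNA per cell cannot be told apart.

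The intervals limit how large a change could have been missed. For 53 of the 78 members the 95% interval of the cKO to WT fold change lay within 1.5-fold in either direction, and for 69 within 2-fold. Between CD25lo and CD25hi Tregs, with 2 and 3 libraries, these numbers were 24 and 58.

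**Figure D2:**
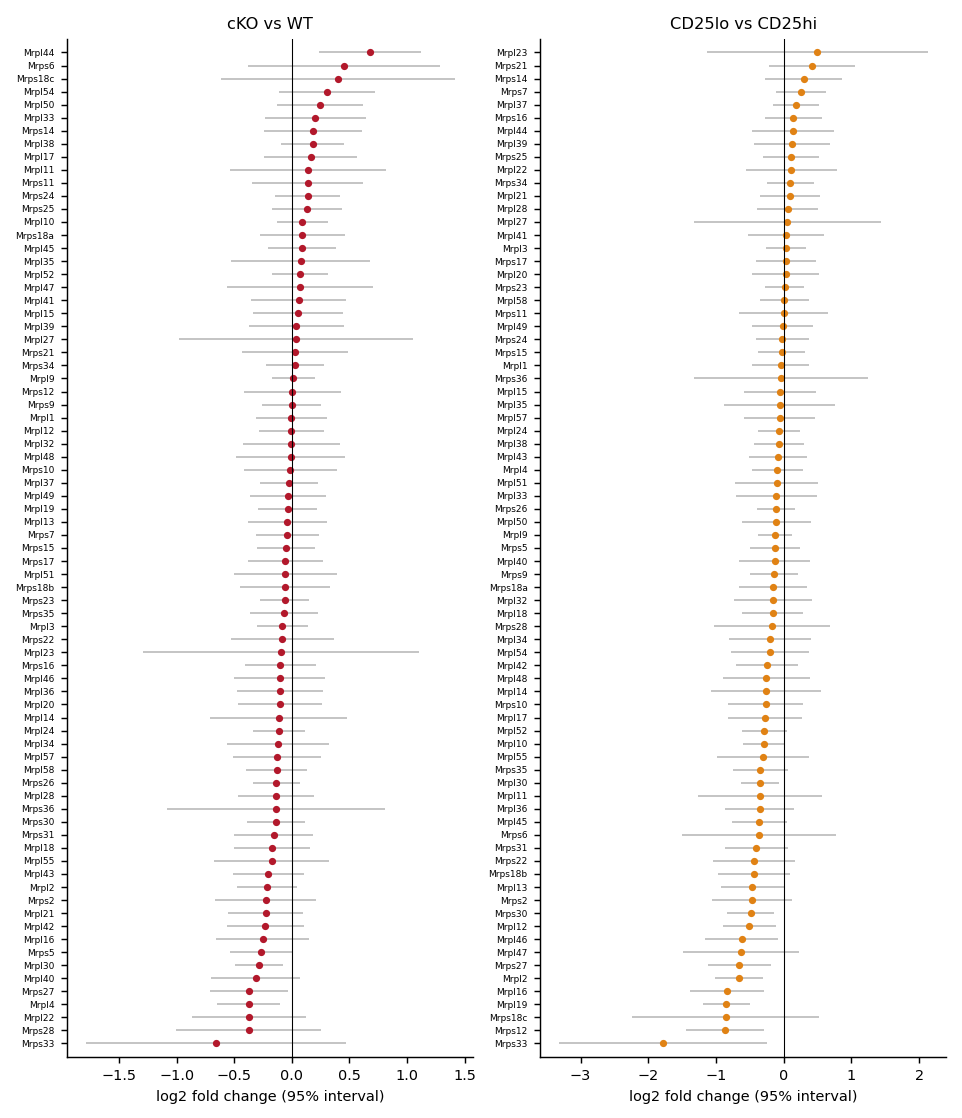
Log2 fold change (x axis) of 77 mitoribosomal protein genes (rows), with cKO vs WT Tregs on the left and CD25lo vs CD25hi Tregs on the right. Points are the limma estimates, lines their 95% intervals, and each panel is sorted by its own estimates. Mrpl53, with hardly any reads, is left out. Most intervals hold 0 in both panels, and the estimates lean below 0 more on the right, where 56 of the 78 members were negative.

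Among large subunit genes, Mrpl44 came closest to a call in cKO Tregs. Its protein carries an RNase III-like fold and sits on the large subunit. Mrpl44 had 608.3, 611.0, 727.1, 625.1 and 529.3 normalized counts in cKO libraries, against 570.6, 281.7, 461.5 and 295.0 in WT libraries. The groups overlapped, and the lowest WT values were those of replicates 2 and 4, the WT libraries with the fewest genes detected. The log2 fold change was 0.68 (SE, the standard error of the fit, 0.21, adjusted p = 0.0877 from limma). It passed the test without WT replicate 1 (0.87, adjusted p = 0.0304) or with the immediate early gene level as a term (0.725, adjusted p = 0.0459). Without the 4 libraries with the fewest genes it was 0.265 (adjusted p = 0.479). Mrpl44 shares exon sequence with Wdfy1 on the opposite strand.

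Mrpl22 had the lowest log2 fold change of the large subunit, at -0.375 (SE 0.24, adjusted p = 0.468 from limma). It had 213.9 to 343.1 normalized counts in cKO libraries and 249.1 to 405.9 in WT libraries, so the ranges overlapped.

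Among small subunit genes, Mrps6 and Mrps18c had the highest and Mrps33 and Mrps28 the lowest log2 fold changes in cKO against WT Tregs. Mrps6 was at 208.3 to 442.5 normalized counts in cKO and 75.3 to 445.3 in WT libraries (log2 fold change 0.45, SE 0.40, adjusted p = 0.638). Mrps18c was at 56.0 to 112.6 in cKO and 37.1 to 111.0 in WT libraries (0.40, SE 0.48, adjusted p = 0.758). Both genes have some of the largest spreads within groups, and both share exon sequence with a gene on the same strand (Slc5a3 and Gm49711 for Mrps6, Gm43511 for Mrps18c). Mrps33 was at 85.8 to 195.0 in cKO and 152.1 to 322.1 in WT libraries (-0.66, SE 0.54, adjusted p = 0.602). Mrps28 was at 194.4 to 259.4 in cKO and 177.0 to 530.7 in WT libraries (-0.38, SE 0.30, adjusted p = 0.592). None of the 4 was called. Without WT replicate 2 the log2 fold change of Mrps6 turned to -0.07 and those of Mrps18c and Mrps28 were 0.15 and -0.09.

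None of the 3 members with an 8-mer passed the test in cKO Tregs. Mrpl3, with 1004.3 to 1202.2 normalized counts in cKO and 1057.5 to 1321.4 in WT libraries, had a log2 fold change of -0.08 (SE 0.105, adjusted p = 0.774 from limma). Mrps25 had 540.2 to 680.2 in cKO and 522.7 to 631.2 in WT libraries (0.13, SE 0.15, adjusted p = 0.732), and the values of Mrps6 are given above. The ranges of all 3 overlapped.

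In 3 members every cKO library was below every WT library, and in 0 every cKO library was above. This happened for 3.62% and 4.92% of all genes tested, and for 3.85% of the members in the lower direction. The 3 are named after their values were seen. Mrpl4, the relative of bacterial L4 at the exit tunnel, had 1101.2, 1019.3, 1196.2, 1115.2 and 1056.6 normalized counts in cKO libraries, against 1304.7, 1396.7, 1373.4 and 1624.8 in WT libraries (log2 fold change -0.37, SE 0.13, adjusted p = 0.138). Mrps5 of the small subunit had 1113.2 to 1308.1 in cKO and 1336.8 to 1745.1 in WT libraries (-0.27, adjusted p = 0.313). Mrps27, a pentatricopeptide repeat protein of the small subunit, had 459.4 to 519.1 in cKO and 531.3 to 800.5 in WT libraries (-0.37, adjusted p = 0.256). None of them passed the test in the fit to all groups, and Mrpl4 passed when only the cKO and WT libraries were fitted.

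The summed level of the 78 genes was 58160.8, 54145.6, 58994.8, 59659.5 and 60169.3 normalized counts in the cKO libraries, against 60740.8 to 61032.6 in the WT libraries. The cKO values lay below the WT values on this scale, with cKO replicate 2 the lowest. Scaled to the reads in genes of each library (RPM), the sum was 1712.9 to 1898.9 RPM in cKO and 1850.6 to 1935.7 RPM in WT libraries, which overlapped. The mean of their log2 levels, which gives each gene the same weight, also overlapped, at 9.07 to 9.24 in cKO and 9.16 to 9.22 in WT libraries.

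**Figure D3:**
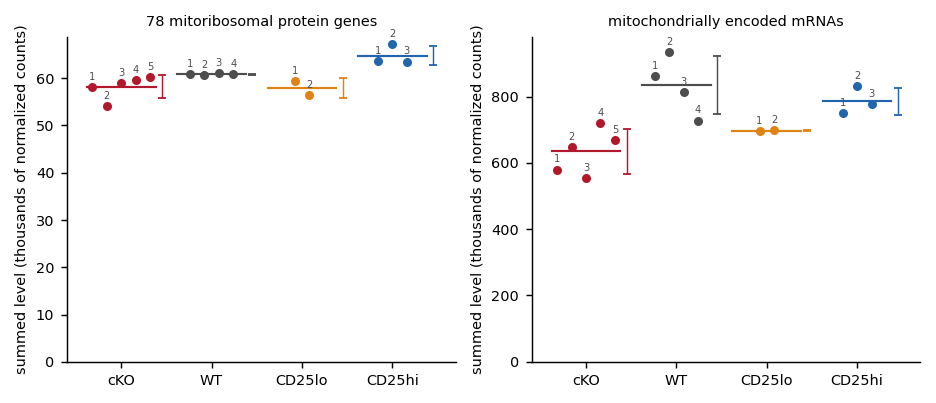
Summed normalized counts (in units of 1000, y axis) of the 78 mitoribosomal protein genes (left) and of the mitochondrially encoded mRNAs (right) in each library, with groups on the x axis. Points are libraries with their replicate number, horizontal lines are means and bars beside them are SDs (n = 5, 4, 2 and 3). In both panels the cKO libraries lie below the WT libraries and the CD25lo below the CD25hi libraries. In the left panel the WT libraries also lie below the CD25hi libraries.

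CD25lo Tregs had 1 called member, Mrpl19, which was lower than in CD25hi Tregs. Of the 78 members, 1 was called lower and 0 higher, where 1.01% and 0.61% of all genes tested were called in these directions. edgeR and limma-voom also called 0 higher and 1 lower. DESeq2, which called more genes in general (258 of all 16241 genes tested higher and 416 lower), called 0 members higher and 3 lower. At an unadjusted p under 0.05, 1 member (1.28%) was higher and 10 (12.8%) lower, where 6.51% of all genes tested were higher and 6.95% lower. The median log2 fold change was -0.13 over the members and 0.00 over all genes tested, with 22 members above 0 and 56 below. This median does not depend on the size of the value of Mrpl53, which lies above it. The medians were -0.11 for the large and -0.14 for the small subunit.

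Mrpl19 encodes a large subunit protein whose bacterial relative L19 lies at the interface of the subunits. It had 627.4 and 686.3 normalized counts in CD25lo libraries, against 1308.8, 1311.9 and 968.4 in CD25hi libraries. The groups did not overlap, with CD25hi replicate 3 the lowest of its group. The log2 fold change was -0.85 (SE 0.165, adjusted p = 0.0121 from limma). The means of bulk Tregs lay between those of the 2 CD25 groups, at 900.1 in cKO and 928 in WT libraries. Single libraries had 867.2 to 943.6 in cKO and 783.8 to 1004.7 in WT Tregs, and the WT range overlapped that of CD25hi. Between cKO and WT Tregs the log2 fold change was -0.04 (SE 0.12, adjusted p = 0.927 from limma). The test of the difference between the effects in cKO and in CD25lo Tregs gave 0.81 (SE 0.205, adjusted p = 0.0615).

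The call on Mrpl19 rested on both CD25lo libraries. It was lost without CD25lo replicate 1 (-0.79, adjusted p = 0.073) and without CD25lo replicate 2 (-0.92, adjusted p = 0.0646), and with a fit to the CD25 libraries alone (adjusted p = 0.275), in which 0 of all 16241 genes passed. Over the 29 alternatives the adjusted p lay between 0.000353 and 0.275, and without the 4 libraries with the fewest genes it was 0.042. Mrpl19 (ENSMUSG00000030045) lies at chr6:81957851-81965958 on the minus strand of GRCm38 and shares exon sequence with Gcfc2 on the opposite strand, so that reads of both genes can be told apart only if strand was used in counting, which is not given in the sources used here.

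Markers of other cell types were low in these libraries. The summed level of 8 B cell markers was 741.1 and 594.4 normalized counts in CD25lo and 455.2 to 692.6 in CD25hi libraries, with Ms4a1 at 0 in all 5. The 12 myeloid markers summed to 1814.8 and 2022.6 in CD25lo and 1266.6 to 1920.4 in CD25hi libraries, with Cd14, S100a8 and Spi1 at 0. The 6 CD8 T and NK cell markers summed to 923.9 and 1174.8 in CD25lo and 737.4 to 995.2 in CD25hi libraries, with none at 0 in all 5. At an unadjusted p under 0.05 from limma, 2 of the 6 B cell markers tested were higher in CD25lo Tregs (Pax5 and Cd22) and 1 lower (Blk). Of the 10 myeloid markers tested 1 was higher (Tyrobp) and 1 lower (Itgam). Of the 5 CD8 T and NK cell markers tested 1 was higher (Klrb1c) and 0 were lower. None of them passed at an adjusted p under 0.05. The part of these markers in the values of Mrpl19 was not tested.

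Another 15 members had both CD25lo libraries below the 3 CD25hi libraries without passing the test, which with Mrpl19 makes 16 of 78, against 11.6% of all genes tested. In the other direction this was so for 1 member (Mrpl53, 1.28%), against 12.9% of all genes. With 2 and 3 libraries, groups that do not overlap are common, and these shares are a description.

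Mrpl2 and Mrpl16, close to the catalytic centre of the large subunit by their bacterial relatives, were among them. They were chosen after their values were seen, except that Mrpl16 is named by its change in WT against CD25hi Tregs. Mrpl2 had 790.1 and 608.6 normalized counts in CD25lo libraries, against 1043.3, 1158.1 and 1095.0 in CD25hi libraries (log2 fold change -0.66, SE 0.17, adjusted p = 0.0536). Mrpl16 had 270.1 and 265.4 in CD25lo libraries, against 475.7, 598.9 and 385.6 in CD25hi libraries (-0.84, SE 0.26, adjusted p = 0.123). Both pairs of groups were apart, and both genes passed the test with DESeq2. For Mrpl2, lying below CD25hi was not particular to CD25lo Tregs. It had 613.0 to 750.1 in cKO and 739.0 to 858.0 in WT libraries, all below every CD25hi library and overlapping the CD25lo values. Its log2 fold change in WT against CD25hi Tregs was -0.44 (SE 0.14, adjusted p = 0.135 from limma). Mrpl16 in CD25lo Tregs was also below every cKO library (384.1 to 645.2) and every WT library (505.6 to 761.5), a difference that was not tested.

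Mrps12, Mrps18c and Mrps33 had the lowest log2 fold changes in CD25lo against CD25hi Tregs. Mrps12 is the counterpart of bacterial S12 at the decoding centre. It had 460.1 and 233.1 normalized counts in CD25lo libraries, against 642.7, 562.3 and 591.5 in CD25hi libraries (-0.87, SE 0.27, adjusted p = 0.13 from limma). The groups were apart, and CD25lo replicate 2 lay farther below CD25lo replicate 1 than that library lay below the lowest CD25hi library. Mrps33 had 190.9 and 20.2 in CD25lo libraries, against 237.4, 404.4 and 109.2 in CD25hi libraries (-1.79, SE 0.73, adjusted p = 0.277), and Mrps18c had 115.5 and 67.6 against 152.9, 266.9 and 102.4 (-0.86, SE 0.66, adjusted p = 0.609). Both overlapped between the groups, and without CD25lo replicate 2 the log2 fold changes of Mrps33 and Mrps12 were -0.20 and -0.38.

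Among members with a mean of at least 100 normalized counts, Mrps21, Mrps14 and Mrps7 had the highest log2 fold changes in CD25lo against CD25hi Tregs. Below that level, the large subunit genes Mrpl53, described above, and Mrpl23 (0.50, SE 0.78, adjusted p = 0.835 from limma) had higher estimates. Mrps21 had 676.5 and 819.5 normalized counts in CD25lo libraries, against 772.1, 300.5 and 748.0 in CD25hi libraries (0.42, SE 0.30, adjusted p = 0.581). Mrps14 had 481.9 and 524.8 against 326.5, 507.3 and 417.5 (0.29, SE 0.27, adjusted p = 0.701), and Mrps7 had 888.3 and 1217.2 against 777.8, 918.8 and 922.0 (0.26, SE 0.18, adjusted p = 0.563). All 3 overlapped. Mrps21 was at -0.03 without CD25hi replicate 2, Mrps7 at 0.03 without CD25lo replicate 2 and Mrps14 at 0.13 without CD25hi replicate 1.

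**Figure D4:**
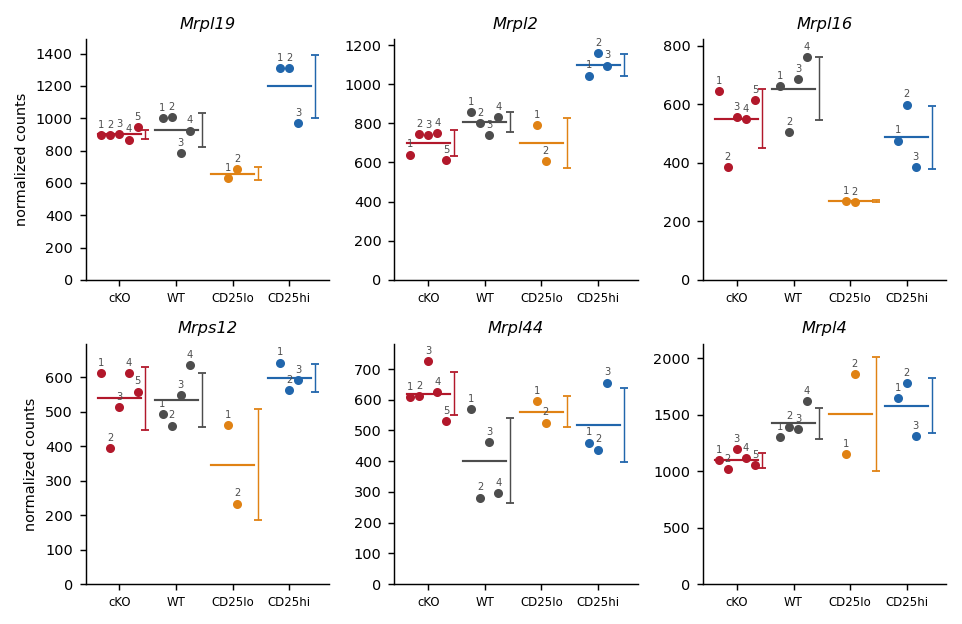
Normalized counts (y axis) of Mrpl19, Mrpl2, Mrpl16, Mrps12, Mrpl44 and Mrpl4 in each library, with groups on the x axis. Points are libraries with their replicate number, horizontal lines are means and bars beside them are SDs. The CD25lo libraries are below the CD25hi libraries for Mrpl19, Mrpl2, Mrpl16 and Mrps12, and the cKO libraries are below the WT libraries for Mrpl4.

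As a sum, the 78 members had 59340.5 and 56409.5 normalized counts in CD25lo libraries, against 63529.6 to 67197.4 in CD25hi libraries. Scaled to the reads in genes the sum was 1852.6 and 1794.2 RPM in CD25lo and 2025.8 to 2108.0 RPM in CD25hi libraries. The groups did not overlap on either scale. The mean of log2 levels was 9.21 and 9.06 in CD25lo and 9.25 to 9.32 in CD25hi libraries, also apart. Lying below the CD25hi libraries was not particular to CD25lo Tregs, since every WT and every cKO library did so on these scales. WT libraries had 60740.8 to 61032.6 normalized counts, 1850.6 to 1935.7 RPM and a mean log2 level of 9.16 to 9.22. The CD25lo and cKO ranges overlapped on all of these scales.

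The effects in cKO and in CD25lo Tregs were set side by side, since the comparisons share no library. Of the 75 members with a mean of at least 100 normalized counts, 37 (49.3%) had a negative log2 fold change in both and 9 (12.0%) a positive one in both. Over all 10300 genes of that level the shares were 24.6% and 27.5%. Since members leaned below 0 in each comparison by itself (50 and 56 of 78), these shares do not measure a link gene by gene. Pearson's r between the 2 log2 fold changes was 0.28 and Spearman's rho 0.16 across the 75 members, and 0.06 and 0.07 across all 10300 genes. The members are not independent replicates, since all come from the same libraries. The test of the difference between the effects called 0 of the 78 members in either direction, where 0.671% of all genes tested had a higher and 0.363% a lower effect in cKO than in CD25lo Tregs. edgeR and limma-voom called 0. DESeq2 called 1 with the higher effect in cKO Tregs (Mrpl19), where it called 340 of all genes tested in this direction and 228 in the other. At an unadjusted p under 0.05, 5 members (6.41%) had the higher effect in cKO Tregs and 0 the lower, where 8.08% and 5.68% of all genes tested did.

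Bulk WT Tregs, which hold all CD25 levels, were set against CD25hi Tregs as a further comparison. It called 0 of the 78 members higher and 0 lower with limma, where 0.862% and 0.191% of all genes tested were called. edgeR, DESeq2 and limma-voom called 0. At an unadjusted p under 0.05, 0 members were higher and 5 (6.41%) lower, where 8.36% of all genes tested were higher and 5.93% lower. The median log2 fold change was -0.065, against 0.01 over all genes, with 28 members above 0 and 50 below. The immediate early gene level given above was higher in all 4 WT than in all 3 CD25hi libraries, and the myeloid markers summed to 1691.5 to 7602.2 normalized counts in WT and 1266.6 to 1920.4 in CD25hi libraries, whose part was not tested. In 3 members (3.85%) every WT library was below every CD25hi library and in 0 above, against 4.18% and 4.7% of all genes tested.

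Mrps18c, Mrpl50 and Mrpl47 had the lowest log2 fold changes in this comparison. Mrpl50, a large subunit protein, had 361.8 to 488.0 normalized counts in WT and 571.2 to 740.2 in CD25hi libraries, which did not overlap (-0.56, SE 0.20, adjusted p = 0.198 from limma). Mrps18c had 37.1 to 111.0 in WT and 102.4 to 266.9 in CD25hi libraries (-1.33, SE 0.55, adjusted p = 0.264). Mrpl47 had 152.1 to 378.0 in WT and 307.3 to 403.4 in CD25hi libraries (-0.54, SE 0.34, adjusted p = 0.5). The largest among members with a mean of at least 100 normalized counts, which leaves out Mrpl53, were those of 3 genes. These were Mrps21 (0.45, adjusted p = 0.433), Mrpl16 (0.43, adjusted p = 0.382) and Mrpl22 (0.26, adjusted p = 0.705). Without CD25hi replicate 2, Mrps21 was at 0.004 and Mrpl22 at 0.14, and without CD25hi replicate 3 Mrpl16 was at 0.275. Without WT replicate 4, Mrpl47 was at -0.29. Mrpl2 and Mrps18b were the other members whose WT and CD25hi libraries did not overlap.

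Most of the measured mRNAs that the mitoribosome translates were lower in cKO Tregs. Of the 13 mitochondrially encoded mRNAs, 7 passed the filter, mt-Nd3 had reads in 1 library only, and mt-Co2, mt-Co3, mt-Atp6, mt-Atp8 and mt-Nd4l were listed at 0 in every library. Of the 7 tested, 5 were lower and 0 higher in cKO than in WT Tregs (mt-Nd1, mt-Nd2, mt-Nd4 and mt-Nd5 of complex I and mt-Cytb of complex III), with adjusted p between 0.001 and 0.0125 from limma. mt-Nd5 had 71781, 74656.4, 62425.9, 84869.7 and 82981.9 normalized counts in cKO libraries, against 116589.1, 119115.2, 104846.3 and 99581.6 in WT libraries (log2 fold change -0.55, SE 0.08, adjusted p = 0.001). mt-Cytb had 135675.2 to 164023.3 in cKO and 174260.6 to 235359.5 in WT libraries (-0.46, SE 0.085, adjusted p = 0.00478). Neither gene overlapped between the groups. mt-Co1, of complex IV, had -0.30 (SE 0.09, adjusted p = 0.0724), and mt-Nd6, of complex I, had 0.30 (SE 0.21, adjusted p = 0.536).

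The sum over these mRNAs took 1.785% to 2.229% of the reads in genes of cKO libraries and 2.316% to 2.848% in WT libraries. In CD25lo libraries it took 2.172% and 2.223%, and in CD25hi libraries 2.385% to 2.608%, also apart, although 0 of the 7 were called there (1 lower at an unadjusted p under 0.05, and 7 of 7 below 0). With sex as a term, which sets the cKO libraries against WT replicate 3 alone, 0 of the 7 were called in cKO Tregs, and over all genes 13 were called higher and 9 lower, against 332 and 240 without the term. The log2 fold change of mt-Nd5 was then -0.485 (SE 0.14, adjusted p = 0.307 from limma), against -0.55 (SE 0.083) without the term. With the number of genes with a read as a term 1 of the 7 was called, and without the 4 libraries with the fewest genes 5 were.

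The rRNAs of the mitoribosome were not called. At an unadjusted p under 0.05 limma had 0 of the 2 as well. The study's methods name the library kit but do not say whether rRNA was removed, so how fully these reads reflect the rRNAs is unknown. The 2 rRNAs summed to 33984.7 to 44575.7 normalized counts in cKO libraries, against 554618.1 to 719839.7 for the mitochondrially encoded mRNAs. mt-Rnr2, the rRNA of the large subunit, had 24514.1 to 31721.2 normalized counts in cKO and 16965.5 to 36299.5 in WT libraries (log2 fold change 0.065, SE 0.19, adjusted p = 0.918 from limma). mt-Rnr1, the rRNA of the small subunit, had 9470.6 to 13308.5 in cKO and 7842.5 to 15421.1 in WT libraries (0.05, SE 0.23, adjusted p = 0.95). In CD25lo against CD25hi Tregs the log2 fold changes were -0.41 (adjusted p = 0.525) and -0.23 (adjusted p = 0.796). The lowest value of each group other than cKO for mt-Rnr2 was in a library with few genes detected.

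**Figure D5:**
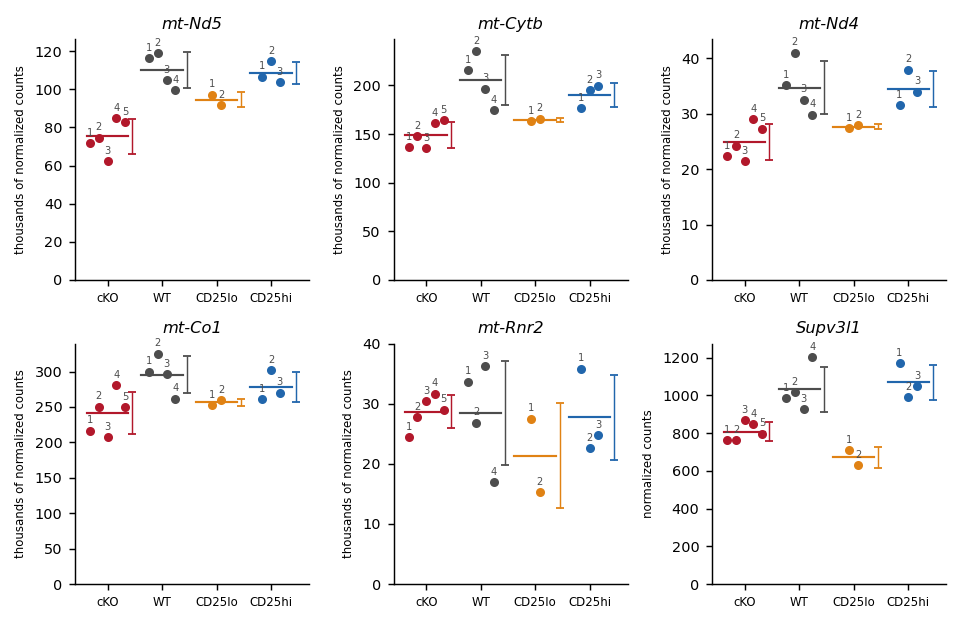
Normalized counts (y axis, in units of 1000 except for Supv3l1) of mt-Nd5, mt-Cytb, mt-Nd4, mt-Co1, mt-Rnr2 and Supv3l1 in each library, with groups on the x axis. Points are libraries with their replicate number, horizontal lines are means and bars beside them are SDs. The cKO libraries are below the WT libraries for mt-Nd5, mt-Cytb, mt-Nd4 and Supv3l1, and the groups overlap for mt-Co1 and mt-Rnr2.

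Around the ribosome, the other nuclear genes of mitochondrial translation had few calls. None of the 5 other mitoribosome subunits tested (Dap3, Gadd45gip1, Ptcd3, Chchd1 and Aurkaip1), 12 translation factors, 24 assembly and rRNA modification genes, 13 genes of mitochondrial transcription and mRNA, and 17 tRNA synthetases was called between cKO and WT Tregs by limma, and at an unadjusted p under 0.05 these lists had 0, 2, 2, 1 and 2 genes. Closest were Tars2, the mitochondrial threonyl-tRNA synthetase, with -0.35 on the log2 scale (adjusted p = 0.0706), and Mtfmt, which formylates the initiator tRNA, with -0.57 (adjusted p = 0.0969). In CD25lo against CD25hi Tregs 1 gene of these lists was called. Supv3l1, the helicase of the mitochondrial RNA degradosome, had 710.1 and 632.8 normalized counts in CD25lo libraries, against 1172.7, 991.1 and 1047.7 in CD25hi libraries (-0.67, SE 0.16, adjusted p = 0.034). In cKO Tregs it had 761.5 to 870.1, against 928.1 to 1204.5 in WT Tregs, also apart but not called (-0.35, SE 0.115, adjusted p = 0.111). In WT against CD25hi Tregs 1 gene was called, Polg2, the accessory subunit of the mitochondrial DNA polymerase, with a mean of 1458 ± 471.9 normalized counts over the 4 WT and 718.8 ± 160.1 over the 3 CD25hi libraries (± SD; 0.98, SE 0.21, adjusted p = 0.04). When only the 2 groups of either comparison were fitted, 0 of all 16241 genes passed, so neither Supv3l1 nor Polg2 was called. Over all genes, WT against CD25hi had 140 called higher and 31 lower. These numbers were 2 and 1 without WT replicate 1 or 2, and 602 and 220 without WT replicate 4.

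The members lie on 17 chromosomes, with at most 11 on one of them, chromosome 11. Exon sequence is shared with another gene by 33 of the 78, with a gene on the same strand by 8 and on the opposite strand by 28. Mrpl46 and Mrps11 overlap each other on opposite strands. Reads at such places may be split between the genes in a way that is not given here. The 5 processed pseudogenes with the same names, which are not members, reached at most 5.8 normalized counts.

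Promoters (250 bases before to 50 after the start site, RefSeq, GRCm38.p6) were given for 65 of the 78 members and for 9942 genes tested. Each motif was searched on both strands. The NRF1 core GCATGCGC stood in 7 of the 65 (10.8%) and in 5.5% of all promoters, the ETS core CCGGAAGT in 10 (15.4%) and 8.5%, and the YY1 core AAGATGGC in 9 (13.8%) and 4.8%. The GC box GGGCGG stood in 50.8% and 63.9%, the E-box CACGTG in 6.2% and 10.1%, and TATAAA in 4.6% and 6.8%. These shares are descriptions of letters in a window.

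The windows before the start site that hold 1 of the first 3 motifs are printed for the 5 that have one among the 16 members whose CD25lo libraries were all below the CD25hi libraries. Those 16 were picked by their values, and of them Mrpl19 and Mrpl36 had no promoter given. Members outside the 16, such as Mrpl9 and Mrpl32, hold such windows too, and a link between motif and level was not tested. The motif, or its complement on the other strand, is in capitals, and each is read in the direction of its gene. They lie on GRCm38.p6 at chr11:97041432-97041471 (Mrpl10, plus strand), chr7:28741997-28742036 (Mrps12, minus), chr17:35916640-35916679 (Mrps18b, minus), chr9:98601680-98601706 (Mrps22, minus) and chr13:99344721-99344760 (Mrps27, plus).
Mrpl10 with the NRF1 core: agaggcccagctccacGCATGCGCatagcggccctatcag
Mrps18b with the NRF1 core: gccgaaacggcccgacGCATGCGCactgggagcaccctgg
Mrps12 with the YY1 core: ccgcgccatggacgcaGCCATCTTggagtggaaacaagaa
Mrps22 with the ETS core: acaaaaacctctcgagCCGGAAGTtgc
Mrps27 with the ETS core: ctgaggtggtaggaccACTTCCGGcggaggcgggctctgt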

How the data were processed

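RNA-seq was measured in 14 libraries grouped by their labels. Single-end 50 bp reads were aligned to GRCm38 with STAR 2.7.2b, per the submitters' processing notes and the study's methods. The authors deposited a signal per gene, which is its reads over the size factor of the library from DESeq2 1.24.0, rounded to 1 decimal. The counter, its strand setting and its treatment of multi-mapped reads are not given in the sources used here. Deposited log2 values, and fold changes and p-values of the authors' own comparisons, were not used. The steps between low values gave whole reads for 100.0% of values (within 0.055 normalized counts), a weaker check in cKO replicate 4 and CD25lo replicate 2, whose size factors of 0.9998 and 0.991 are close to 1. Libraries held 30055573 to 35226685 reads in genes. On these reads edgeR called 294 genes higher and 227 lower in cKO than in WT libraries. The table lists 55536 genes, of which 48363 have values.

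Group means were fitted with limma-trend (limma 3.58.1, R 4.3.3) to log2(normalized count + 1) over all 14 libraries. Genes entered if 2 or more libraries reached 10 normalized counts, which left 16241. Calls needed an adjusted p under 0.05 (Benjamini-Hochberg over all these genes). Fold changes on this scale understate those of low genes. The alternatives were edgeR 4.0.16, DESeq2 1.42.0 and limma-voom on the recovered reads, other pseudocounts and filters, only the groups compared, a replicate block, sex or the immediate early level as a term, and each library left out. The fit was tested on simulated data.

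The members and lists were chosen with earlier results of these data known. The named genes are, per comparison, up to 8 called members in each direction and the 3 highest and 3 lowest log2 fold changes among members with a mean of at least 100 normalized counts. To these were added the 3 highest and 3 lowest per kb, members with an 8-mer, and up to 4 genes of each other list by adjusted p. Transcript lengths, 3′ UTRs and overlaps came from GENCODE M21 (GRCm38), and miRNA and promoter sequences from RefSeq (GRCm38.p6).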

Additional observations from a re-analysis of the deposited data

Results flagged for a closer look

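In 9 of 160 groups of 4 or 5 libraries (the cKO and the WT libraries for each member and for the summed levels), 1 library stood far from the rest of its group by the ratio of its gap to the whole range, where chance gives about 1 in 20. Among WT libraries, replicate 4 was high for Mrpl17 (593 normalized counts, others 411.7 to 430) and Mrpl43 (1632, others 1011.5 to 1070.4), replicate 2 was high for Mrpl36 (878, others 466.6 to 504), and replicate 1 was high for Mrpl55 (471.7, others 285.7 to 304.7). WT replicate 3, the only female WT library, was low for Mrpl46 (447.3, others 698.7 to 746.9). The cKO libraries, all female, had 485.1 to 800.3 of Mrpl46, and a link to sex was not tested. WT replicate 3 was also the only WT library with reads of Mrpl53 (5.1, others 0), where the rule flags any single value above 0. Among cKO libraries, replicate 2 was low for Mrpl57 (360.8, others 497.4 to 530.4) and Mrps24 (652.9, others 840.9 to 917.4), and replicate 5 was low for Mrps34 (847.3, others 942.1 to 955.8).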

How the results depend on the processing

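Members lower in CD25lo than in CD25hi Tregs numbered 1 (Mrpl19). They were 3 with DESeq2, 2 among genes with a mean of at least 100 normalized counts, 2 with the immediate early level as a term, and 0 with only the 2 groups compared, a fit with fewer libraries. Without single libraries they were 0 to 3 (0 without CD25lo replicate 2; 3, which do not include Mrpl19, without CD25lo replicate 1; 2 without WT replicate 2 or 4). Members higher in cKO than in WT Tregs numbered 0, 1 with the immediate early level as a term (Mrpl44), and 0 to 1 without single libraries (1 without WT replicate 1). Members lower in cKO numbered 0, and 1 with only the 2 groups compared (Mrpl4). The difference between the effects had 0 members. It had 1 with DESeq2, 1 among genes with a mean of at least 100 and 1 with the immediate early level as a term, and 0 to 1 without single libraries (1 without WT replicate 2 or CD25hi replicate 3), and it could not be fitted with only 2 groups. Mitochondrially encoded mRNAs lower in cKO numbered 5, 0 with sex as a term, 1 with the number of genes with a read as a term, and 4 to 6 otherwise. The cause of these shifts was not tested.

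Same-numbered libraries did not deviate together more than others (correlations of -0.32 to 0.106 across genes, against -0.329 to 0.279 for other numbers). The 2 CD25lo libraries deviate from their mean by equal and opposite amounts, so pairing with them can hardly be judged. With the replicate block the counts stayed at 0 members in cKO and 1 in CD25lo Tregs, and 5 mitochondrial mRNAs. Over all genes, limma called 332 higher and 240 lower in cKO Tregs and DESeq2 468 and 427. In CD25lo Tregs limma called 99 and 164 and DESeq2 258 and 416. Library weights, the number of genes with a read as a term, the set without the 4 libraries with the fewest genes, and all alternatives for the mitochondrial mRNAs were chosen after seeing the data. A lone CD25lo library was assumed to vary like the other groups.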
